A study of Rattus norvegicus with 20 samples.

Results

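The genes described here are the ligands, receptors, secreted inhibitors and core intracellular components of fibroblast growth factor (FGF) and Wnt signalling, measured in cortical neurons that had or had not sprouted new axons after stroke. They were chosen by gene name. The FGF set holds every gene named Fgf with a number and the receptors Fgfr1, Fgfr2 and Fgfr4. The Wnt set holds every gene whose name starts with Wnt, Fzd, Sfrp or Dkk, together with Lrp5, Lrp6, Ctnnb1, Axin1 and Axin2. Where a gene had several probes, the probe of highest mean signal stood for it. This gave 61 genes of 37555 measured features, 25 in the FGF set and 36 in the Wnt set. Of these, 43 genes (18 FGF and 25 Wnt) were among the 31382 features that were bright enough to test.

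The study used 10 aged rats of 2 yr with a cortical infarct, and every animal received both tracers. Cholera toxin B (CTb), a protein that axons take up and carry back to their cell bodies, was injected beside the infarct as CTb-Alexa 488 and, 21 or 7 days later, as CTb-Alexa 647 at the same place. By laser capture 7 days after the second tracer, about 300 neurons of each kind, sprouting and non-sprouting, were cut out of each animal. The groups are sprouting and non-sprouting neurons at day 21 (5 animals) and at day 7 (5 other animals), and the sources used here give no strain, genotype or uninjured animals. Their RNA went through 2 rounds of T7 amplification, and both pools of an animal were hybridised against each other on 2 two-colour arrays with the dyes exchanged, so that the animal is the replicate. Each value below is the log2 ratio of sprouting over non-sprouting neurons of 1 animal, averaged over its 2 arrays, and a positive ratio means more signal in sprouting neurons. In such pools, fewer cells of a type and less RNA per cell cannot be told apart.

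FGFs are secreted proteins that act on receptor tyrosine kinases together with heparan sulfate or Klotho co-receptors, and in the brain they pattern the embryo, keep progenitors dividing and support neurons. A subgroup of FGFs is not secreted and binds voltage-gated sodium channels inside the neuron. Wnts bind Frizzled receptors (Fzd). With the co-receptors Lrp5 and Lrp6 they keep beta-catenin (Ctnnb1) from being destroyed on the Axin scaffold, while through other routes Wnts guide growing axons and organise synapses. Secreted Sfrp proteins bind Wnts, and Dkk1 and Dkk4 block Lrp5 and Lrp6.

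Beta-catenin acts on DNA through TCF and LEF proteins, which bind sites with the core letters CTTTGA, which read TCAAAG when met from the opposite strand. Axin2 and Dkk1 are textbook targets of this branch, and Fzd1 and Fgfr2 are shown beside them as genes whose ratios are described below. The sequences are the 250 bases before each gene's start in RefSeq on the rat build GRCr8, 5' to 3' on the gene's strand, with the core in capitals. They lie at chr10:94398535-94398784 on the plus strand (Axin2), chr1:237798651-237798900 on the minus strand (Dkk1), chr4:30264824-30265073 on the plus strand (Fzd1) and chr1:194280915-194281164 on the minus strand (Fgfr2).
Axin2: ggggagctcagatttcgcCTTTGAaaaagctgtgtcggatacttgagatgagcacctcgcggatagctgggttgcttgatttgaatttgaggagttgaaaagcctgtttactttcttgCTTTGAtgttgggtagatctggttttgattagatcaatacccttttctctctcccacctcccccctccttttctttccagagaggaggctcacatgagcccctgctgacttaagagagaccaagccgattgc
Dkk1: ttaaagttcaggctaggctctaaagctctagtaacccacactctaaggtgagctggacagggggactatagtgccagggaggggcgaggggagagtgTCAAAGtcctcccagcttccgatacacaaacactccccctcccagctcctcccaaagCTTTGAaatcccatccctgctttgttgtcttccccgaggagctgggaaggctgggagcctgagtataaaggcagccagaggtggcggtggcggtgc
Fzd1: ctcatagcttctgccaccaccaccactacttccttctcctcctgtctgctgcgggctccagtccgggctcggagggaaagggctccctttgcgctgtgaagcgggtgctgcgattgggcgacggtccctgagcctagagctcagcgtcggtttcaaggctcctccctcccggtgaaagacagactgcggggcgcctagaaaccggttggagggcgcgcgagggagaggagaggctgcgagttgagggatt
Fgfr2: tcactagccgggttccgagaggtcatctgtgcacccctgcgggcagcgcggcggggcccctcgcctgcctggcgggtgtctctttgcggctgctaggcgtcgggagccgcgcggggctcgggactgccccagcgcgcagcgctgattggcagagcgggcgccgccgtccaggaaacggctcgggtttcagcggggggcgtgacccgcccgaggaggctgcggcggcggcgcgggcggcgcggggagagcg
The Axin2 window holds the core letters at 232 and 132 bases before the start, the Dkk1 window at 153 and 96 bases, and the Fzd1 and Fgfr2 windows do not hold them on either strand. Of the 43 genes with a promoter entry, 4 (9.3%; Axin2, Dkk1, Fzd7 and Wnt8a) hold the letters, against 4656 of 33469 promoters (13.9%) in the RefSeq table. A match of 6 letters is a description of the window and not a binding site.

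The arrays bore on the genes as follows. The share of spots that the scanner software marked as clearly above background ranged from 69.8% to 95.5% on the Cy5 side and from 20.8% to 95.2% on the Cy3 side. The dye-swap array of day 21 replicate 4 stood apart, with the lowest Cy3 share of 20.8% and 4088 outlier spots, and its ratios correlated at 0.051 with those of its forward array, against 0.325 to 0.888 in the other animals. All 10 neuron markers were tested and the brightest were Snap25 and Nefm, as the label says. The astrocyte genes Slc1a3 and Gja1, the oligodendrocyte gene Olig1 and the microglial genes C1qb and Cd68 were above background as well, so both pools held RNA of genes typical of other cells. The brightest endothelial genes were Kdr and Slc2a1, the brightest mural cell or fibroblast genes Col1a2 and Pdgfrb, and the brightest blood genes Hbb and Alas2.

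Most of these genes gave weak signals. Mean signals lay below 7 on the log2 scale for 17 of 25 FGF and 25 of 36 Wnt genes, where the constant added to every spot alone gives 5.64. Only Fgf13 in the FGF set and Axin1, Wnt10a and Dkk3 in the Wnt set were well above background in both channels on all 20 arrays. No probe of either set was saturated on any array. The exchanged dyes often disagreed in sign. Among the genes above background on every array, Axin1, Wnt10a and Dkk3 did so on both days and Fgf13 on neither. At day 21 the forward and the turned dye-swap means had opposite signs for 10 of 18 FGF genes and 19 of 25 Wnt genes, against 51.4% of all features tested. At day 7 this held for 10 of 18 FGF genes and 16 of 25 Wnt genes, against 44.5% of all features.

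In neither set was a gene called as different between sprouting and non-sprouting neurons. The limma fit with Benjamini-Hochberg adjustment over all features called 0 of 18 FGF and 0 of 25 Wnt genes at day 21 (0% of all features), 0 and 0 at day 7 (0%), and 0 and 0 for the difference between the days (0%). At an unadjusted p under 0.05 it marked 1 gene, Fgf17 at day 7, against 6.11% of all features at day 7, 4.76% at day 21 and 4.14% for the difference. The smallest adjusted p was 0.919 at day 21 in both sets, and at day 7 it was 0.71 in the FGF set and 0.818 in the Wnt set. The precision limits what this says. The 95% intervals of the mean ratio lay within 0.5 log2 units of 0 for 17 of 18 FGF genes at day 21 and 16 of 18 at day 7, and for 22 of 25 Wnt genes on either day.

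**Figure D1:**
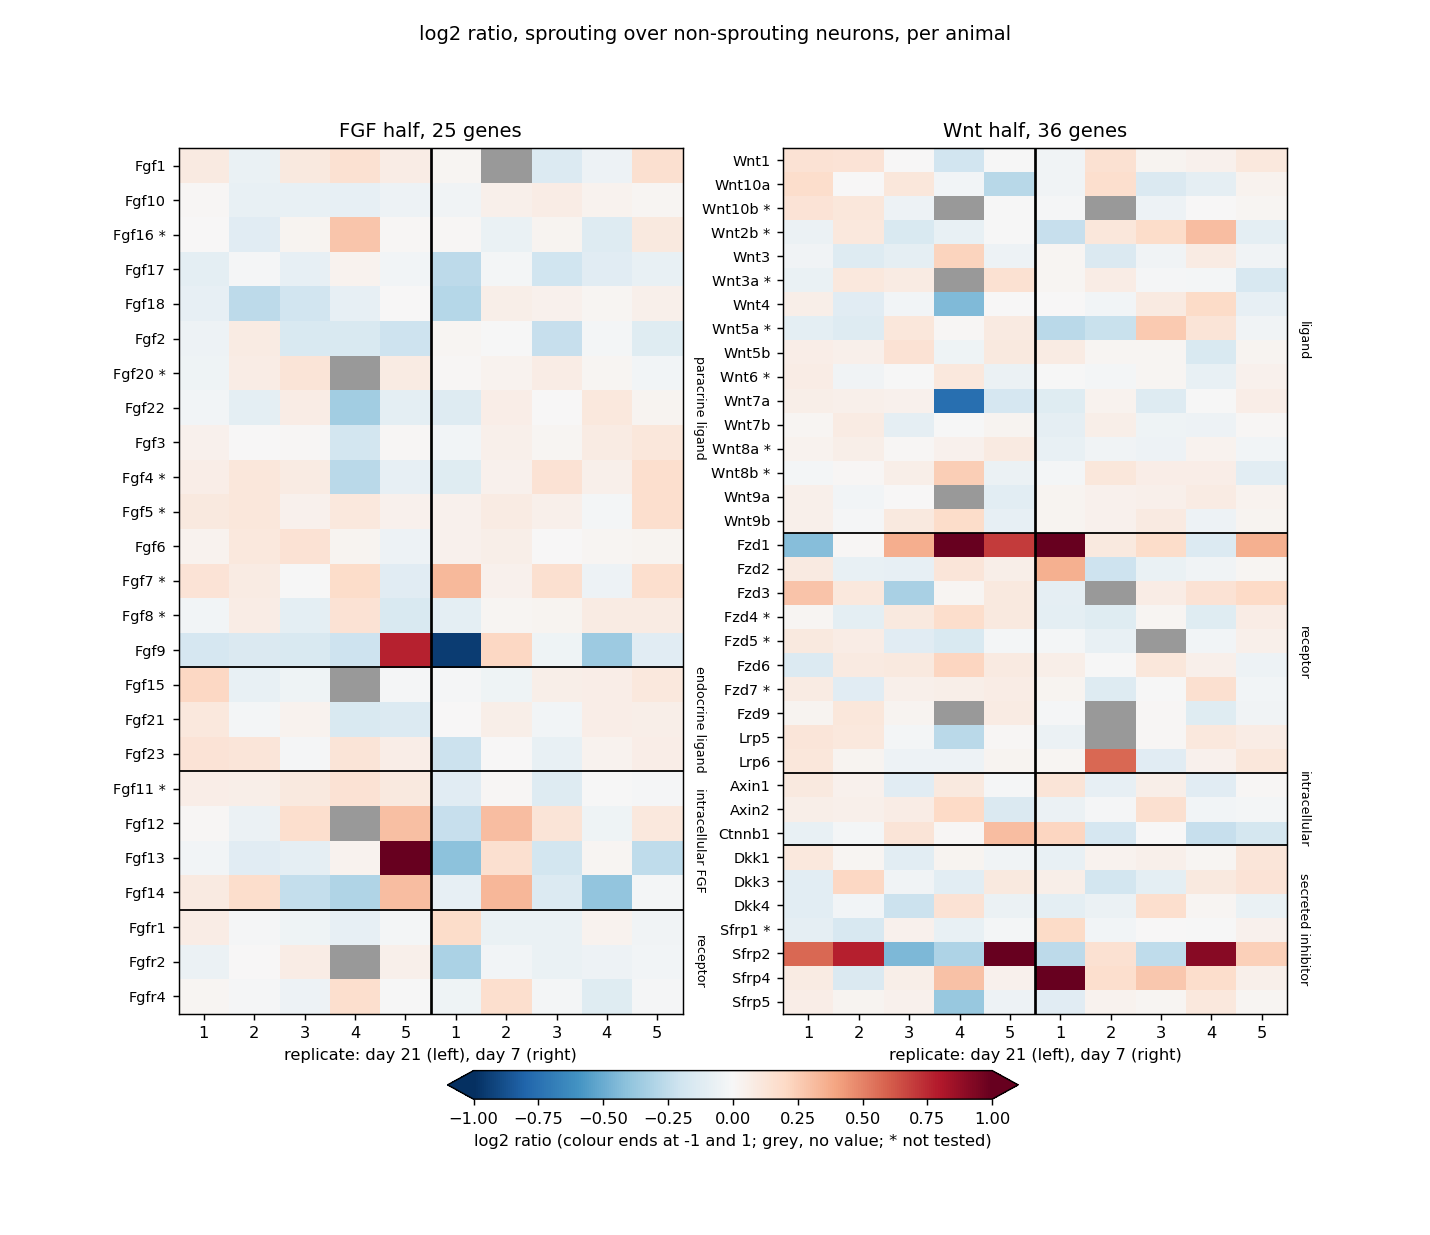
Log2 ratio of sprouting over non-sprouting neurons in each animal (columns, day 21 left and day 7 right of the thick line) for the 25 FGF genes and 36 Wnt genes (rows, grouped by role). Colours end at -1 and 1, grey cells have no value and stars mark genes too dim to test. Most cells are pale. Some genes are strong in 1 animal, such as Sfrp4 in day 7 replicate 1 and Fgf13 in day 21 replicate 5, while Fzd1 and Sfrp2 are strong in several animals.

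In the FGF set the tested genes centred near 0. Their median ratio was 0.011 at day 21 and -0.0040 at day 7, against -0.0011 and -0.0021 for all features tested on the same days. The ratio was above 0 for 10 of 18 genes at day 21 and for 8 of 18 at day 7. At day 21 none of the 15 genes with a value in every animal had 1 sign throughout, against 6.31% of all such features. At day 7 this held for 3 of 17 genes (Fgf17 and Fgfr2 below 0, Fgf6 above 0), against 11.1% of all such features. The day 7 mean of Fgf6 was -0.04 on the forward arrays and 0.10 on the dye swaps. None of the 14 genes with 10 values had ratios that did not overlap between the days, against 0.957% of all such features.

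Fgf17, of the Fgf8 subfamily that patterns the embryonic midbrain and frontal cortex, was the gene nearest to a call. Its ratios were -0.10, -0.01, -0.08, 0.03 and -0.03 in day 21 animals and -0.26, -0.02, -0.20, -0.12 and -0.08 in day 7 animals. All 5 day 7 animals were below 0, and the ranges of the days overlapped. The mean was -0.04 ± 0.05 at day 21 and -0.13 ± 0.09 at day 7 (SD, n = 5 each), and at day 7 limma gave an adjusted p of 0.71, with a 95% interval from -0.22 to -0.05. The exact sign-flip test gave the smallest p that 5 animals allow, 0.0625. The difference between the days was 0.10 (limma, adjusted p = 0.922; exact permutation of the days, p = 0.0873).

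Fgf18, which shares this subfamily, was below 0 in most day 21 animals and near 0 in most day 7 animals. Its ratios were -0.08, -0.26, -0.19, -0.08 and 0.0036 at day 21, and -0.28, 0.06, 0.04, 0.02 and 0.05 at day 7. The day 21 mean was -0.12 ± 0.10 (SD, n = 5; limma, adjusted p = 0.919). At day 7 replicate 1 alone was low.

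Fgf2, the basic FGF that stimulates progenitors and astrocytes, had ratios of -0.05, 0.09, -0.15, -0.15 and -0.21 at day 21. At day 7 they were 0.02, -0.0040, -0.23, -0.02 and -0.12. The means were -0.10 ± 0.12 and -0.07 ± 0.10 (SD, n = 5 each; limma at day 21, adjusted p = 0.919), and the days overlapped throughout. A second Fgf2 probe, too dim to test, averaged 0.02 at day 21 and -0.05 at day 7. Fgf1, the acidic FGF, had 0.09, -0.07, 0.10, 0.16 and 0.07 at day 21, and 0.02, -0.14, -0.05 and 0.16 in the 4 day 7 animals with a value. It was above 0 in 4 of 5 animals at day 21 and in 2 of 4 at day 7.

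Fgf9, a factor made by neurons that acts on glia, varied most among the paracrine ligands. Its ratios were -0.17, -0.15, -0.15, -0.20 and 0.77 at day 21, and -0.95, 0.21, -0.04, -0.36 and -0.11 at day 7. Replicate 5 stood alone above 0 at day 21, and replicate 1 was far below the rest at day 7. The means were 0.02 ± 0.42 and -0.25 ± 0.44 (SD, n = 5 each; limma at day 7, adjusted p = 0.845). Without replicate 5 the day 21 mean was -0.17, and without replicate 1 the day 7 mean was -0.08.

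Fgf22, which in mice organises excitatory presynaptic terminals, had ratios of -0.02, -0.10, 0.08, -0.35 and -0.10 at day 21. At day 7 they were -0.13, 0.07, 0.0047, 0.10 and 0.03, so the lowest value came from day 21 replicate 4. The day 21 mean of Fgf22 was 0.11 on the forward arrays and -0.30 on the dye swaps. Fgf10, of the same subfamily as Fgf22, gave the smallest p of the FGF set for the difference between the days. Its ratios were 0.01, -0.07, -0.08, -0.08 and -0.05 at day 21, and -0.03, 0.05, 0.08, 0.04 and 0.02 at day 7. Of the 5 animals, 4 were below 0 at day 21 and 4 were above 0 at day 7. The difference was -0.09 (limma, adjusted p = 0.922; exact permutation of the days, p = 0.0159, where the smallest possible is 0.00794). The exchanged dyes disagreed in sign on both days. The Fgf10 mean on the forward arrays and on the dye swaps was -0.15 and 0.03 at day 21, and -0.03 and 0.09 at day 7.

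The other paracrine ligands stayed close to 0. Fgf3 and Fgf6 were tested and Fgf4, Fgf5, Fgf7, Fgf8, Fgf16 and Fgf20 were too dim to test. Over all 15 paracrine ligands the mean ratios ran from -0.12 to 0.08 at day 21 and from -0.25 to 0.13 at day 7, where the ends were Fgf9 and the untested Fgf7.

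Among the 3 endocrine FGFs, Fgf23, the hormone that lowers blood phosphate, had ratios of 0.14, 0.12, -0.01, 0.13 and 0.06 at day 21. At day 7 they were -0.21, 0.01, -0.07, 0.03 and 0.07. The day 21 mean was 0.09 ± 0.06 (SD, n = 5; limma, adjusted p = 0.919), and the difference between the days was 0.12 (limma, adjusted p = 0.922). Fgf21, a metabolic hormone, averaged -0.03 ± 0.11 at day 21 and 0.03 ± 0.04 at day 7 (SD, n = 5 each). Fgf15, the rodent gut hormone that represses bile acid synthesis and that RefSeq lists as Fgf19, averaged 0.02 ± 0.13 at day 21 (SD, n = 4) and 0.04 ± 0.06 at day 7 (SD, n = 5).

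The intracellular FGFs bind sodium channels, and Fgf13 also binds microtubules in mouse neurons. Fgf13 had ratios of -0.03, -0.11, -0.09, 0.03 and 1.24 at day 21, and -0.41, 0.16, -0.19, 0.02 and -0.25 at day 7. The day 21 mean of 0.21 ± 0.58 (SD, n = 5) rested on replicate 5, in which the forward array gave 1.26 and the dye swap 1.22, and without that animal it was -0.05. In day 21 replicate 5 the level of Fgf13 was 14.27 in sprouting and 13.03 in non-sprouting neurons (normalised log2 intensity), where the other 4 non-sprouting pools of day 21 lay between 14.02 and 14.27. The low value was thus that of the non-sprouting pool. In the same animal the level of Fgf9 was low in both pools, with 7.26 in sprouting and 6.50 in non-sprouting neurons. The other day 21 pools lay between 7.98 and 8.58 in sprouting and between 8.18 and 8.73 in non-sprouting neurons.

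The neuron markers of day 21 replicate 5 also differed between its pools, with a median ratio of -0.33 over the 10 genes, 4 of 10 above 0, and values from -1.11 (Nefl) to 1.94 (Snap25, whose spot was saturated on 3 of the 20 arrays, so that its ratio is not exact). In the other day 21 animals this median ran from -0.14 to 0.06. In the 4 animals of each day with a value for every marker, the summed log2 level of the neuron list ran from 95.1 to 96.7 in sprouting and 96.0 to 98.0 in non-sprouting pools at day 21, and from 93.5 to 97.3 in sprouting and 91.1 to 98.5 in non-sprouting pools at day 7. The part of these differences in the Fgf13 and Fgf9 ratios was not tested. 

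Fgf14, which in mice tunes sodium channels at the axon initial segment, had ratios of 0.09, 0.17, -0.24, -0.30 and 0.31 at day 21, and -0.08, 0.33, -0.13, -0.39 and -0.02 at day 7. Both signs occurred on both days. A second, dimmer Fgf14 probe gave 0.02, -0.05, -0.16, -0.12 and -0.01 at day 21, and -0.17, 0.01, -0.10, 0.04 and -0.02 at day 7. Its values spread less, with an SD of 0.07 at day 21 and 0.09 at day 7, against 0.27 and 0.26 for the probe used. Fgf12 averaged 0.11 ± 0.16 at day 21 (SD, n = 4) and 0.05 ± 0.20 at day 7 (SD, n = 5), and Fgf11 was too dim to test.

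Of the receptors, Fgfr2, through which the Fgf7 and Fgf9 subfamilies signal, had ratios of -0.06, 0.00087, 0.07 and 0.05 in the 4 day 21 animals with a value. At day 7 they were -0.31, -0.03, -0.06, -0.05 and -0.03, all below 0, with replicate 1 apart. The means were 0.02 ± 0.06 (SD, n = 4) at day 21 and -0.10 ± 0.12 (SD, n = 5) at day 7 (limma at day 7, adjusted p = 0.830). The other 2 Fgfr2 probes averaged 0.02 and -0.0031 at day 7, and without replicate 1 the mean of the probe used was -0.04. Fgfr1, the main FGF receptor of neurons, had 0.08, -0.01, -0.04, -0.08 and -0.02 in day 21 animals, and 0.18, -0.07, -0.06, 0.04 and -0.03 in day 7 animals, on both sides of 0 on either day. A second Fgfr1 probe of nearly equal signal differed from it, with 0.15, 0.05, 0.08, 0.10 and 0.01 at day 21, all above 0. The day 21 mean was 0.08 for that probe and -0.01 for the probe used, and the day 7 mean was 0.01 for both. Fgfr4 averaged 0.02 ± 0.08 at day 21 and -0.0047 ± 0.11 at day 7 (SD, n = 5 each).

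**Figure D2:**
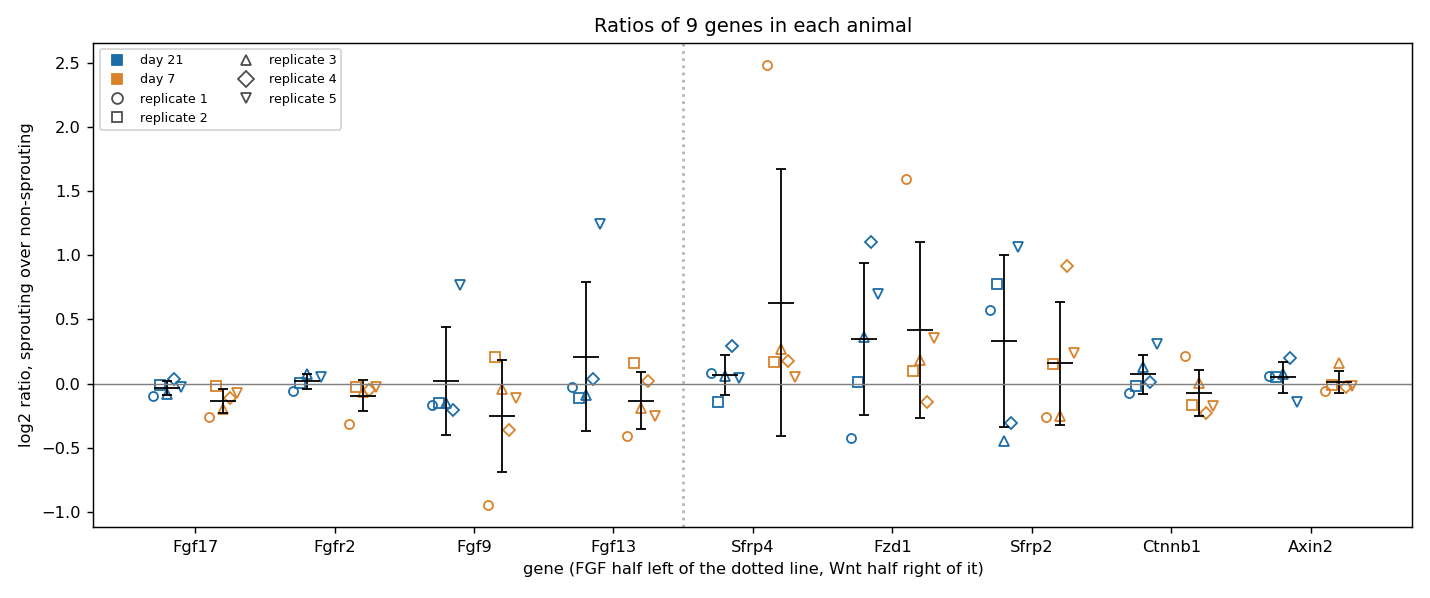
Log2 ratio of sprouting over non-sprouting neurons for 9 genes, FGF genes left and Wnt genes right of the dotted line; each symbol is 1 animal (blue day 21, orange day 7; the shape gives the replicate) and black bars show the mean ± SD. Fgf17 and Fgfr2 lie in a narrow band, while the means of Fgf13 at day 21 and of Sfrp4 at day 7 are drawn up by 1 animal each, at 1.24 and 2.49.

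In the Wnt set the tested genes lay slightly above 0. Their median ratio was 0.020 at day 21 and 0.014 at day 7, and 17 of 25 genes were above 0 on either day. For all features tested the medians were -0.0011 at day 21 and -0.0021 at day 7, with 49.3% and 48.7% above 0. The day 7 median of the Wnt genes was 0.0087 from the forward arrays alone and 0.061 from the dye-swap arrays alone. At day 21 none of the 23 genes with a value in every animal had 1 sign throughout. At day 7 this held for 2 of 22 genes, Sfrp4 and Wnt9a, both above 0, beside the same 11.1% of all such features. None of the 21 genes with 10 values had ratios that did not overlap between the days.

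Of the 16 Wnt ligands, 9 were tested, and their mean ratios and those of the untested ones lay between -0.16 and 0.07 at day 21 and between -0.03 and 0.06 at day 7. Wnt4, which attracts growing commissural axons in rodent spinal cord, had ratios of 0.06, -0.11, -0.03, -0.44 and 0.01 at day 21. At day 7 they were 0.0041, -0.03, 0.09, 0.19 and -0.08. The lowest value came from day 21 replicate 4, and without that animal the day 21 mean was -0.02 in place of -0.10 ± 0.20 (SD, n = 5; limma, adjusted p = 0.919). The difference between the days was -0.14 (limma, adjusted p = 0.922).

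Wnt5b, a ligand of beta-catenin-independent signalling, had ratios of 0.07, 0.05, 0.14, -0.04 and 0.10 at day 21, and 0.08, 0.02, 0.02, -0.15 and 0.03 at day 7. On both days replicate 4 alone was below 0. The day 21 mean was 0.06 ± 0.07 (SD, n = 5; limma, adjusted p = 0.919), and it was -0.14 on the forward arrays and 0.26 on the dye swaps. Wnt7a and Wnt7b, which cortical neurons and glia use in synapse and vessel formation, averaged -0.16 ± 0.35 and 0.01 ± 0.06 at day 21 and -0.03 ± 0.09 and -0.02 ± 0.06 at day 7 (SD, n = 5 each). The Wnt7a mean at day 21 rested on replicate 4, with -0.76, where a second, dimmer Wnt7a probe gave -0.10 and had a day 21 mean of -0.06. The day 21 mean of the probe used was 0.0098 on the forward arrays and -0.32 on the dye swaps. Wnt7a is singled out here after its values were seen.

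The other tested ligands were Wnt1, Wnt3, Wnt9a, Wnt9b and Wnt10a. Of these, Wnt9a was above 0 in all 5 day 7 animals with 0.05 ± 0.02 (SD, n = 5) and had both signs in the 4 day 21 animals with a value, at -0.02 ± 0.07 (SD, n = 4). The day 7 mean of Wnt9a was -0.01 on the forward arrays and 0.10 on the dye swaps. Wnt2b, Wnt3a, Wnt5a, Wnt6, Wnt8a, Wnt8b and Wnt10b were too dim to test. Wnt5a, which repels corticospinal axons through the receptor Ryk in mice, was well above background on 2 sprouting and 1 non-sprouting array of 10 at day 21, and on 3 sprouting and 6 non-sprouting arrays of 10 at day 7. Wnt6 was not well above background on any sprouting array of day 7.

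Fzd1, a Frizzled that can signal through beta-catenin, spread more widely at day 7 than any Wnt gene but Sfrp4. Its ratios were -0.42, 0.01, 0.36, 1.10 and 0.70 at day 21, and 1.60, 0.10, 0.18, -0.14 and 0.36 at day 7. Of the 5 animals, 4 were above 0 on either day, and the highest were day 7 replicate 1 and day 21 replicates 4 and 5. The means were 0.35 ± 0.59 and 0.42 ± 0.68 (SD, n = 5 each), each smaller than its SD (limma at day 7, adjusted p = 0.838). Both arrays gave these values in day 7 replicate 1, with 1.58 and 1.62, and in day 21 replicate 4, with 1.16 and 1.04. Without day 7 replicate 1 the day 7 mean was 0.12, and without day 21 replicate 4 the day 21 mean was 0.16.

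Fzd3, which guides axon tracts in mice, had ratios of 0.28, 0.11, -0.32, 0.02 and 0.10 at day 21, and -0.09, 0.07, 0.15 and 0.20 in the 4 day 7 animals with a value. Fzd9 had 0.03, 0.11, 0.02 and 0.08 in 4 day 21 animals, all above 0, and -0.01, 0.01, -0.12 and -0.03 in 4 day 7 animals. Its day 21 mean was 0.06 ± 0.04 (SD, n = 4; limma, adjusted p = 0.919) and the difference between the days was 0.10 (limma, adjusted p = 0.922). Fzd2 averaged 0.02 ± 0.09 at day 21 and 0.01 ± 0.21 at day 7 (SD, n = 5 each), and Fzd4, Fzd5 and Fzd7 were too dim to test. Fzd6 was not well above background on any of the 10 sprouting arrays of day 21, so it has only a bound there and no fold is given for that day.

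The co-receptor Lrp6 had ratios of 0.11, 0.03, -0.05, -0.05 and 0.03 at day 21, and 0.02, 0.57, -0.12, 0.04 and 0.11 at day 7. The day 7 mean of 0.13 ± 0.26 (SD, n = 5; limma, adjusted p = 0.838) rested on replicate 2, in which the forward array gave 1.05 and the dye swap 0.10. That forward array had 1913 outlier spots, and in that animal the neuron markers had a median ratio of 0.35 with 9 of 10 above 0 and the oligodendrocyte markers one of -0.67 with 0 of 9 above 0; their part in the ratio was not tested. Without that animal it was 0.02. Lrp5 averaged -0.01 ± 0.16 at day 21 (SD, n = 5) and 0.03 ± 0.07 at day 7 (SD, n = 4).

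Inside the cell, Ctnnb1 had ratios of -0.07, -0.02, 0.13, 0.01 and 0.31 at day 21, and 0.21, -0.17, 0.00026, -0.23 and -0.18 at day 7. The days overlapped, and the difference of 0.14 was smaller than the SD within day 7 of 0.18 (limma, adjusted p = 0.922). Axin2, the feedback target whose promoter is printed above, had 0.06, 0.05, 0.08, 0.20 and -0.14 in day 21 animals, and -0.05, -0.01, 0.16, -0.03 and -0.02 in day 7 animals. It was above 0 in 4 of 5 animals at day 21 and in 1 of 5 at day 7. Axin2 was well above background on only 2 sprouting and 5 non-sprouting arrays at day 21, against 7 and 9 at day 7. Its mean on the forward arrays and on the dye swaps was 0.10 and -0.0041 at day 21, and 0.05 and -0.03 at day 7. The exchanged dyes thus disagreed in sign on both days. Axin1, the scaffold of the complex that destroys beta-catenin, averaged 0.02 ± 0.09 at day 21 and -0.0014 ± 0.10 at day 7 (SD, n = 5 each).

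Among the secreted inhibitors, Sfrp4 gave the smallest p of the Wnt set at day 7. Its ratios were 0.08, -0.14, 0.06, 0.29 and 0.04 at day 21, and 2.49, 0.17, 0.27, 0.17 and 0.05 at day 7. All 5 day 7 animals were above 0, but replicate 1 stood far above the other 4. The means were 0.07 ± 0.16 and 0.63 ± 1.04 (SD, n = 5 each), and limma gave an adjusted p of 0.818 at day 7, with a 95% interval from -0.03 to 1.28. Without replicate 1 the mean was 0.17. In that animal the level of Sfrp4 was 9.88 in sprouting and 7.40 in non-sprouting neurons (normalised log2 intensity), where the other day 7 pools lay between 7.49 and 8.33 in sprouting and between 7.37 and 8.16 in non-sprouting neurons. Of the other 2 Sfrp4 probes, 1 gave 1.71 in the same animal and 1 gave 0.09.

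Day 7 replicate 1 also differed in markers of mural cells and fibroblasts. The median ratio of the 6 tested markers of 8 was 1.71 there with 6 of 6 above 0, against -0.16 to 0.09 in the other day 7 animals, and the largest single ratios were those of Col1a2 at 5.46 and Dcn at 3.28. The blood markers had a median of 0.59 and the endothelial markers of 0.29 in that animal. The 12 microglial and macrophage markers had a median of 0.06 with 7 of 12 above 0, and they ran from -0.93 to 4.21 (Lyz2). Among those above 0, Cd68 had 1.45 and Tyrobp 1.30. In day 21 replicate 2 the mural and fibroblast median was -1.06 with 1 of 6 above 0, where Sfrp4 had -0.14, and in the other day 21 animals it ran from -0.12 to 0.02. The summed log2 level of the list ran from 43.1 to 46.6 in sprouting and 43.6 to 53.8 in non-sprouting pools at day 21, and from 44.3 to 57.0 in sprouting and 43.4 to 47.9 in non-sprouting pools at day 7. The part of these cells in the Sfrp4 and Fzd1 ratios was not tested. The Fzd1 ratio was also high in day 21 replicates 4 and 5, where the list's median was -0.06 and -0.04. The Fzd1 level was at its lowest in those animals, with 8.30 and 7.46 in sprouting pools and 7.20 and 6.76 in non-sprouting pools, and it lay between 8.80 and 10.13 in sprouting and between 8.44 and 9.43 in non-sprouting pools of the other animals.

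**Figure D3:**
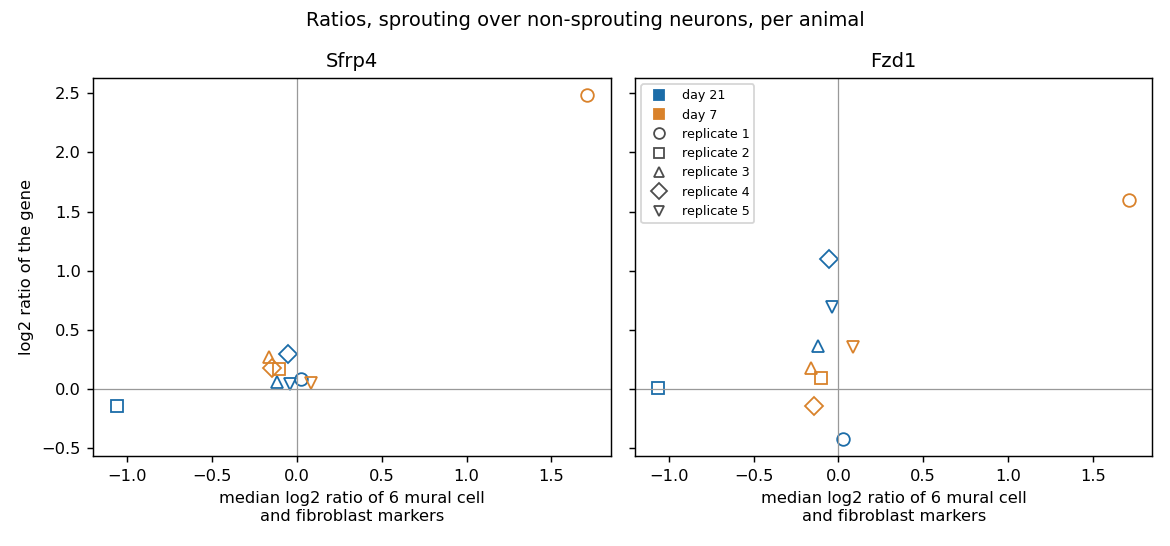
Log2 ratio of Sfrp4 (left) and Fzd1 (right) against the median log2 ratio of the 6 mural cell and fibroblast markers in the same animal; each symbol is 1 animal (blue day 21, orange day 7; the shape gives the replicate). Day 7 replicate 1 sits alone at the upper right of both panels with a marker median of 1.71, while the Fzd1 values 1.10 and 0.70 of day 21 belong to animals with marker medians near 0.

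Sfrp2, named here after its values were seen, also spread widely. Its ratios were 0.57, 0.77, -0.45, -0.31 and 1.06 at day 21, and -0.26, 0.15, -0.26, 0.91 and 0.23 at day 7. A second Sfrp2 probe gave 0.54, 0.70, -0.33, 0.08 and 0.54 at day 21 and -0.29, 0.10, -0.17, 0.58 and 0.13 at day 7, with the sign of the first probe in all animals but day 21 replicate 4. Another, dimmer Sfrp2 probe averaged -0.02 at day 21 and -0.05 at day 7, and its day 7 ratios of 0.17, -0.09, -0.07, -0.17 and -0.08 had the sign of the first probe in replicate 3 alone. Animals thus differed in both directions, and the mean was 0.33 ± 0.67 at day 21 and 0.16 ± 0.48 at day 7 (SD, n = 5 each; limma, adjusted p = 0.919 and 0.934).

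Dkk3, a divergent member of its family that cortical neurons express, had ratios of -0.11, 0.21, -0.03, -0.10 and 0.10 at day 21, and 0.06, -0.19, -0.10, 0.10 and 0.14 at day 7. Signs were mixed on both days. Dkk1 averaged 0.0013 ± 0.08 at day 21 and 0.03 ± 0.07 at day 7, Dkk4 -0.05 ± 0.13 and -0.01 ± 0.11, and Sfrp5 -0.06 ± 0.18 and 0.01 ± 0.08 (SD, n = 5 each). Sfrp1 was too dim to test.

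Other genes of both pathways gave no call either. Of 23 further FGF pathway genes (co-receptors, adaptors, feedback inhibitors and targets) 18 were tested, and limma called none on either day or between the days. At an unadjusted p under 0.05 it marked none at day 21, 1 lower at day 7 and 2 higher for the difference of day 21 minus day 7, beside 4.76%, 6.11% and 4.14% of all features in either direction. Their median ratio was 0.03 at day 21 and 0.01 at day 7. Klb, Flrt1, Il17rd, Fgfbp1 and Etv4 were not tested.

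At day 7 the lower gene was Frs2, the adaptor that docks on activated FGF receptors, at -0.17 ± 0.16 (SD, n = 4; limma, adjusted p = 0.795), followed by the co-receptor Flrt3 at 0.23 ± 0.31 (SD, n = 5; limma, adjusted p = 0.823). At day 21 the smallest p belonged to the feedback inhibitors Spry4, at -0.08 ± 0.11 (SD, n = 5; limma, adjusted p = 0.919), and Spred2, at 0.08 ± 0.06 (SD, n = 4; limma, adjusted p = 0.919). Between the days, Spred1, which holds back Ras signalling, had ratios of 0.03, 0.48, -0.02, -0.14 and 1.38 at day 21 and -0.26, -0.45, -0.45, -0.01 and -0.52 at day 7. All 5 day 7 animals were below 0 and the days overlapped, with a difference of 0.69 (limma, adjusted p = 0.922). For Spred2 the difference was 0.14 (limma, adjusted p = 0.922).

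Of 52 further Wnt pathway genes 41 were tested, and limma again called none. At an unadjusted p under 0.05 it marked 1 lower at day 21, 2 higher and 1 lower at day 7, and 1 higher and 1 lower for the difference, with the same shares of all features beside them. The median ratio was 0.0012 at day 21 and 0.0099 at day 7. Wls, Rspo2, Rspo3, Rspo4, Lgr6, Znrf3, Tcf7l1, Tcf7l2, Lef1, Pygo1 and Celsr1 were not tested.

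Csnk1a1, the casein kinase that primes beta-catenin for destruction, came nearest to a difference between the days. Its ratios were -0.17, -0.31, -0.22, 0.07 and -0.58 at day 21 and 0.33, 0.20, 0.29, 0.07 and 0.09 at day 7. It was below 0 in 4 of 5 animals at day 21 and above 0 in 5 of 5 at day 7. The means were -0.24 ± 0.23 (limma, adjusted p = 0.919) and 0.20 ± 0.12 (limma, adjusted p = 0.806; SD, n = 5 each), and the difference was -0.44 (limma, adjusted p = 0.922). Tle4, a co-repressor that TCF proteins recruit, averaged 0.06 ± 0.09 at day 21 and -0.13 ± 0.09 at day 7 (SD, n = 5 each; limma at day 7, adjusted p = 0.768). Its difference was 0.19 (limma, adjusted p = 0.922). Dvl3, the protein that relays Frizzled signals, averaged -0.07 ± 0.07 at day 21 (SD, n = 5; limma, adjusted p = 0.919).

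A ratio does not show whether both pools moved between the days, so levels were compared within each kind of neuron, as normalised log2 intensity. Here Dkk4, a blocker of Lrp5 and Lrp6 that beta-catenin itself can induce, fell in both kinds. In sprouting neurons its level was 6.63, 6.21, 6.39, 6.60 and 6.41 in day 21 animals, and 6.93, 7.03, 7.13, 6.90 and 6.99 in day 7 animals. In non-sprouting neurons it was 6.74, 6.24, 6.61, 6.45 and 6.47 at day 21, and 7.03, 7.09, 6.96, 6.88 and 7.06 at day 7. The days did not overlap in either kind, and how often this happens over all features was not counted. The difference was -0.55 in sprouting (limma, adjusted p = 0.0315) and -0.50 in non-sprouting neurons (limma, adjusted p = 0.0427). Both kinds came from the same animals and arrays, so these are not independent observations.

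Dkk4 was the only tested gene of either set called at the level of sprouting neurons (1 of 25 Wnt and 0 of 18 FGF genes, against 1.87% of all features) and of non-sprouting neurons (the same counts, against 1.87%). The call did not hold under several other settings. Arrays were scanned in 5 batches, by the scan times in the files. Only batch 3 holds animals of both days, day 21 replicate 1 and day 7 replicates 4 and 5. With the scan batch as a block, the part of the difference shared by both kinds comes from these animals alone. The differences were then -0.29 and -0.25. Within batch 3 alone they were -0.31 and -0.23, so these are not separate checks. The call was lost when any 1 of the 5 day 7 animals was left out, with limma adjusted p from 0.0620 to 0.115 in sprouting and 0.0988 to 0.147 in non-sprouting neurons. It was lost as well without day 21 replicate 2, 3 or 4, with adjusted p from 0.0523 to 0.117 in sprouting and 0.0536 to 0.148 in non-sprouting neurons. Dkk4 was well above background on 6 sprouting and 8 non-sprouting arrays of 10 at day 21 and on all arrays at day 7.

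Fgf17 was lower at day 21 without passing the test. Its level was 8.07, 7.59, 7.28, 8.23 and 8.77 in sprouting neurons at day 21, and 8.39, 9.35, 8.84, 8.57 and 8.57 at day 7. The difference was -0.76 in sprouting (limma, adjusted p = 0.0774) and -0.86 in non-sprouting neurons (limma, adjusted p = 0.0505), and the days overlapped in both. Axin1 differed by -0.48 and -0.50 (limma, adjusted p = 0.157 and 0.135), Dkk1 by -0.26 in sprouting neurons (limma, adjusted p = 0.191), and Fgf21 by -0.28 and -0.22 (limma, adjusted p = 0.206 and 0.316).

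The receptors Fgfr4 and Lrp5 had higher mean levels at day 21 without passing the test, in both cases through the same pair of animals. Fgfr4 had 6.47, 6.86, 6.79, 8.09 and 7.63 in sprouting neurons at day 21, and 6.50, 6.43, 6.50, 6.68 and 6.43 at day 7. Replicates 4 and 5 of day 21, the only animals of scan batch 5, stood above all others. The difference was 0.66 in sprouting and 0.63 in non-sprouting neurons (limma, adjusted p = 0.127 and 0.143). With the scan batch as a block, where the shared part comes from the animals of batch 3 alone, it was -0.11 and -0.14. In non-sprouting neurons Lrp5 had 6.41, 6.63, 6.51, 8.17 and 7.86 at day 21, and 6.32, 6.26, 6.40 and 6.40 in the 4 day 7 animals with a value, with a difference of 0.77 (limma, adjusted p = 0.174). Lrp6, named here after its values were seen, had 8.41 and 8.15 in sprouting neurons of day 21 replicates 4 and 5, against 6.60 to 7.01 in the other 8 animals. Other members stood apart in this pair of animals too. Of the 38 tested members with a level in both, 8 were above and 10 below all other animals in sprouting neurons, and 8 were above and 7 below in non-sprouting neurons. The same count was not made over all features, so it cannot be read as a trait of these genes. Untested dim members were high in this pair of animals as well, such as Wnt2b with 7.83 and 9.39 in sprouting pools. Scan batch and animal cannot be told apart there.

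As lists, both sets had level differences centred close to those of all features. The median level difference of the tested FGF genes was -0.06 in sprouting and -0.05 in non-sprouting neurons, and that of the Wnt genes -0.06 and -0.08, against -0.06 and -0.06 over all features. Higher at day 21 were 7 and 8 of 18 FGF genes and 10 and 11 of 25 Wnt genes.

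**Figure D4:**
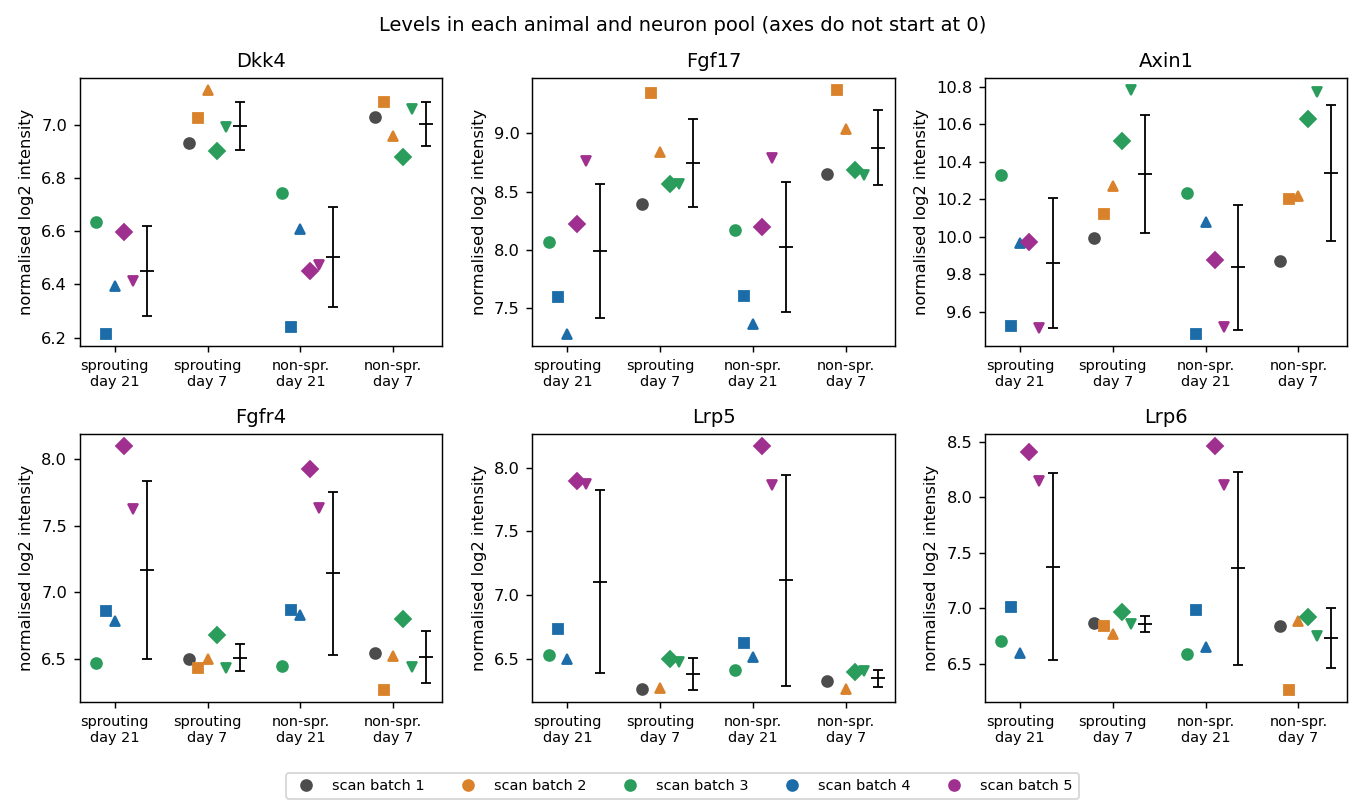
Normalised log2 intensity of 6 genes in each animal, in sprouting neurons at day 21 and day 7 (left pair) and in non-sprouting neurons at day 21 and day 7 (right pair); colours give the scan batch, shapes the replicate (circle 1, square 2, triangle 3, diamond 4, inverted triangle 5) and black bars the mean ± SD, on axes that do not start at 0. Dkk4 separates the days in both kinds of neuron, while Fgfr4, Lrp5 and Lrp6 are high only in the 2 day 21 animals of scan batch 5.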

How the data were processed

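Agilent 2-colour arrays (20, with 2 per animal) were quantified by the authors with Feature Extraction 9.1.3.1, per the file headers. The deposited spot values are mean and background intensity in Cy3 and Cy5, and a log10 ratio of red over green. A deposited table holds log2 ratios normalised by the authors, by a method not given in the sources used here; it was used as an alternative, and 20 of its columns, which repeat names, were left out. Its columns correlated at 0.892 to 1.00 with the ratios computed here, each best with its own array, with slopes of 0.863 to 1.68.

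In R 4.3.3 with limma 3.58.1, intensities were background-corrected (normexp, offset 50) and loess-normalised with control spots at weight 0, and outlier spots were dropped. Ratios were turned to sprouting over non-sprouting by the dyes in the labels. The forward and dye-swap arrays were averaged to 1 value per animal, and an animal lacking either array has none. Features are gene names, or single probes without a symbol (14073 features have one). To be tested, a feature had to be marked well above background, in the channel of at least 1 kind of neuron, on the forward and the dye-swap array of 3 or more animals of the same day. lmFit and eBayes were fitted on 10 animals, with Benjamini-Hochberg adjustment over all tested features and a threshold of 0.05. Levels are single channels after loess and Aquantile, with the animal as a random block (correlation 0.847). The steps were tested on simulated data. P-values weigh a mean against the spread between animals, and the number of animals limits the precision.

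Members, gene lists and tests were chosen with earlier results of these data known. Genes are given in full if among the 3 tested members of smallest p in a set and comparison or on a fixed list, and the 2 of smallest p in a pathway list. Alternatives were other background corrections, normalisations, filters, probes and dye orientations, the authors' table, blocks for scan batch and replicate number, and leaving out each animal. By accession 35 members matched RefSeq, and by symbol 26.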

Additional observations from a re-analysis of the deposited data

Results flagged for a closer look

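For each gene of smallest p or on the fixed list, a sample was noted when its gap to the nearest other animal of its day exceeded 0.71 of the range of the 5 animals. Wnt5a and Sfrp1, too dim to test, were included, and Sfrp2 was not. This happened in 8 of 48 groups. Several of these groups share an animal, and part of the genes were picked by p from these data. The same count was not made over all features, so it cannot be read as a trait of these genes. In day 7 replicate 1 the log2 ratio of sprouting over non-sprouting neurons was far above the other animals for Sfrp4 (2.49) and Fzd1 (1.60) and below them for Fgfr2 (-0.31) and Fgf18 (-0.28). In day 21 replicate 5 it was far above the others for Fgf13 (1.24) and Fgf9 (0.77). In day 7 replicate 3 it was 0.16 for Axin2, and in day 7 replicate 4 it was -0.15 for Wnt5b.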

How the results depend on the processing

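No gene of either set was called for a ratio under any alternative. Over all features, day 7 gave 1 call without background correction, 15 from the dye swaps alone and 12 with the 20 arrays entered singly, day 21 gave 1 with median centring and 1 singly, the day difference gave 1 singly, and leaving out 1 animal gave 0 throughout. The Wnt median at day 21 was 0.076 with the Feature Extraction ratio and 0.055 with median centring; at day 7 these gave 0.033 and 0.068, the stricter filter -0.0014, the dye swaps 0.061, and leaving out 1 animal 0.012 to 0.026. The FGF median was -0.029 at day 21 in the authors' table and -0.096 at day 7 under the stricter filter, which kept 6 genes. With the scan batch as a block, the ratio differences between the days come from day 21 replicate 1 against day 7 replicates 4 and 5 alone. There those of Fgf17 (-0.0039) and Wnt4 (0.00033) changed sign. The blocked level differences of Fgfr4 (-0.11 sprouting, -0.14 non-sprouting) changed sign as well. On the forward arrays alone the day 21 ratio of Wnt5b changed sign (-0.14). Level calls between the days numbered 15 (sprouting) and 13 (non-sprouting) with the scan batch block, and leaving out 1 animal gave 0 (day 7 replicate 3 or 4, or day 21 replicate 2) to 1918 (day 21 replicate 1) in sprouting and 1 (day 7 replicate 5) to 1785 (day 21 replicate 1) in non-sprouting neurons, with up to 2 and 3 members among them. Dkk4 lost its call in 10 of 17 alternatives in sprouting and 11 of 17 in non-sprouting neurons, among them quantile normalisation in non-sprouting neurons (adjusted p = 0.0795). Animals of equal replicate number did not deviate together (correlations -0.196 to 0.036), so the numbers do not pair animals; with a replicate block the day difference had 0 calls and the level comparisons 432 and 469, and Dkk4 had adjusted p = 0.0547 and 0.0648. The cause of these shifts was not tested. Signals near background limit most of these genes.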
